A study of Mus musculus with 4 samples.

Results

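The R4 regulators of G-protein signalling (RGS) are a subfamily of 10 small proteins encoded in the mouse by Rgs1, Rgs2, Rgs3, Rgs4, Rgs5, Rgs8, Rgs13, Rgs16, Rgs18 and Rgs21. The members were taken by gene symbol from the 4 deposited tables, and all 10 were found among the 25239 gene IDs, on 1 row each in every library. The study sequenced poly(A)-selected RNA from mouse retina dissected in mid-gestation (E13.5), in 2 control libraries and 2 that carry the label Isl1cKO. By the series' text these retinae lack Isl1, a LIM-homeodomain transcription factor. The Cre driver, the alleles of either group and the number of animals behind a library are not given in the sources used here. The question of the series was how the retinal transcriptome differs when Isl1 is lost, and the account below follows the R4 genes through that comparison. The family was chosen with the low level of Rgs4 in the Isl1cKO-labelled libraries already known, so the values of its members in this comparison are a description, and no p-value of theirs is offered as support.

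RGS proteins switch off signals from G-protein-coupled receptors. A receptor that has bound its ligand loads a G alpha subunit with GTP, and the RGS domain speeds up hydrolysis of that GTP, which lets the alpha subunit rejoin its beta and gamma partners. R4 proteins consist of little more than this domain and a short amino-terminal helix, and most of them act on G alpha i/o and G alpha q. The retina is best known for another subfamily, since Rgs9 of the R7 group ends the light response of photoreceptors, whereas Rgs4 is a neuronal R4 protein with varied expression across the developing nervous system.

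The targeted gene was read first. Levels are in TPM, which scales reads to transcript length and to the library's total. The level of Isl1 was 242 TPM in control replicate 1 and 201 TPM in control replicate 2, against 321 and 223 TPM in the Isl1cKO-labelled libraries. The groups overlapped, so the level of Isl1 did not bear out the labels, and every direction below rests on them. The tables give no value per exon, so a deleted stretch could not be read on its own. Of 10 retinal progenitor genes, all tested, 4 had a lower and 6 a higher mean in the Isl1cKO-labelled libraries, and 0 were called in limma. Those at an unadjusted p-value under 0.05 were the cyclin gene Ccnd1 (log2 fold change -0.92) and the growth factor gene Fgf15 (-0.35). Pax6 stood at 537 and 539 TPM in controls and at 610 and 598 TPM in the Isl1cKO-labelled libraries (log2 fold change 0.17). Library depth, derived from the ratio of coverage to FPKM, was 12.6 to 14.3 gigabases of aligned sequence, and depth in reads is unknown. The labels do not say that replicates came from separate animals, so p-values measure only the spread between these samples, which may be technical.

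Of the 10 members, 7 had a value above 0 in at least 1 library and 3 (Rgs1, Rgs18 and Rgs21) were listed at 0 in all 4. The other genes fell into an abundant set and a scarce set. Rgs16, Rgs3, Rgs2 and Rgs8 each stood between 24.9 and 69.8 TPM in every library, whereas Rgs4, Rgs13 and Rgs5 never exceeded 7.16 TPM. On this per-length scale Rgs16 was the most abundant member in each library, followed by Rgs3, Rgs2 and Rgs8. Rgs3 and Rgs2 did not overlap within the controls, but in the Isl1cKO-labelled libraries the lower Rgs3 value, 32.2 TPM, lay next to the higher Rgs2 value, 32.0 TPM. Rgs4 was the fifth in order in controls and in the Isl1cKO-labelled libraries, where it lay close to Rgs13.

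**Figure D1:**
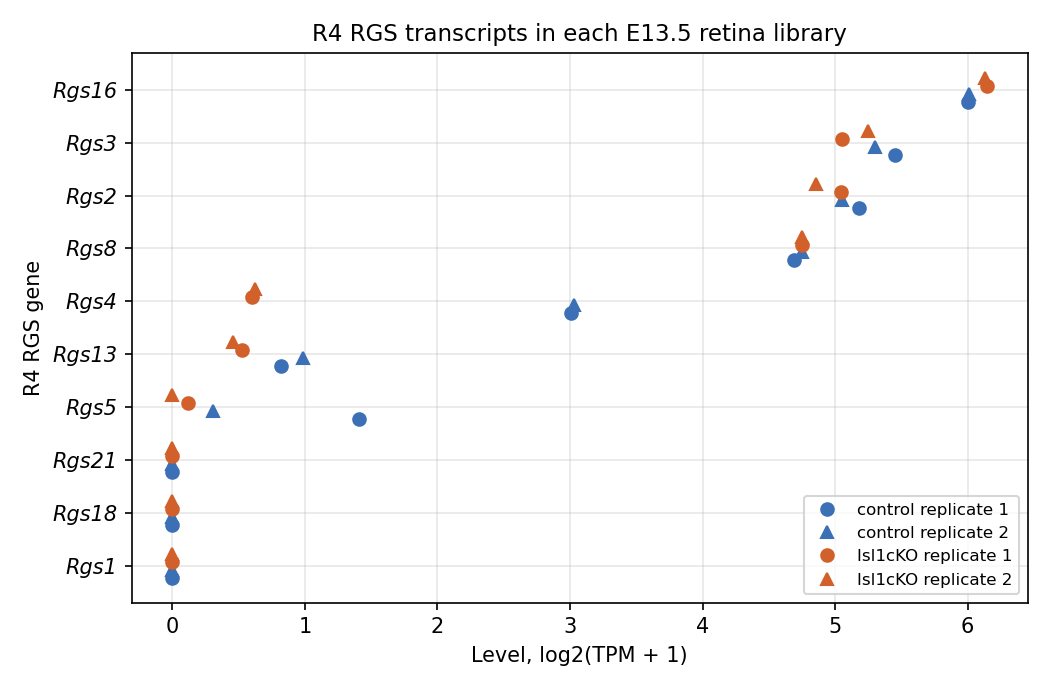
Level of each R4 RGS gene as log2(TPM + 1) in the 4 libraries. Circles are replicate 1 and triangles replicate 2, with controls in blue and libraries labelled Isl1cKO in orange. Rgs4 shows the widest gap between the groups, while the points of Rgs8 lie almost on top of each other and Rgs1, Rgs18 and Rgs21 sit at 0.

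The summed level of the family was 175 and 168 TPM in control replicates 1 and 2, and 161 TPM in both libraries labelled Isl1cKO. Without Rgs4 the sums were 168 and 161 TPM in the controls and 160.3 and 160.4 TPM in the Isl1cKO-labelled libraries, so control replicate 2 then lay close to the Isl1cKO-labelled libraries and control replicate 1 above them. Rgs16 made up 35.9% and 37.7% of the family's TPM in controls and 43.4% and 42.9% in the Isl1cKO-labelled libraries. Rgs4 made up 4.02% and 4.26% in controls, and 0.322% and 0.336% in the Isl1cKO-labelled libraries.

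Rgs4 (chromosome 1, 169741477 to 169747642, minus strand, mm10) encodes an R4 protein that acts on G alpha i/o and G alpha q in neurons. Its level was 7.06 and 7.16 TPM in control replicates 1 and 2, and 0.518 and 0.540 TPM in Isl1cKO replicates 1 and 2. The replicates of each group lay almost together and the groups were far apart. The control mean was 7.11 ± 0.0719 TPM and the Isl1cKO mean 0.529 ± 0.0154 TPM (SD, n = 2 each), 13.4-fold lower, and the ratio for single pairs of libraries ran from 13.1 to 13.8. On the scale of log2(TPM + 1), where the change of so low a gene is understated, the log2 fold change was -2.41 (SE 0.08).

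The same drop was present in the values not scaled to library size. Mean coverage per base over Rgs4 was 37.0 and 35.4 in controls and 2.77 and 2.68 in the Isl1cKO-labelled libraries. With the 2941 bases of its longest GENCODE transcript, this corresponds to 109 and 104 kilobases of aligned sequence in controls and to 8.14 and 7.87 kilobases in the Isl1cKO-labelled libraries. The low values rest on aligned sequence in both libraries.

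Among 13984 genes tested with limma, those with at least 1 TPM in at least 2 libraries, 69 or 0.493% had a Benjamini-Hochberg adjusted p-value under 0.05. Of these, 65 (0.465%) were lower and 4 (0.0286%) higher in the Isl1cKO-labelled libraries. Of the 5 members that passed the filter (Rgs2, Rgs3, Rgs4, Rgs8 and Rgs16), 1 was called, which was Rgs4. Nothing is read from this count, because the family was picked for that gene and because Rgs4 passed the filter through the controls alone. By size, Rgs4 was number 34 among the falls of all tested genes. Its call was lost without control replicate 1 (adjusted p-value 0.0615 in limma) and without control replicate 2 (0.0503), where 1 control was left and the log2 fold changes were -2.42 and -2.40. With FPKM in place of TPM the log2 fold change was -1.59 and the call was kept. The FPKM of Rgs4 was 2.59 and 2.67 in controls and 0.194 and 0.212 in the Isl1cKO-labelled libraries. The same pseudocount of 1 was added to these smaller values, which understates the change further.

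**Figure D2:**
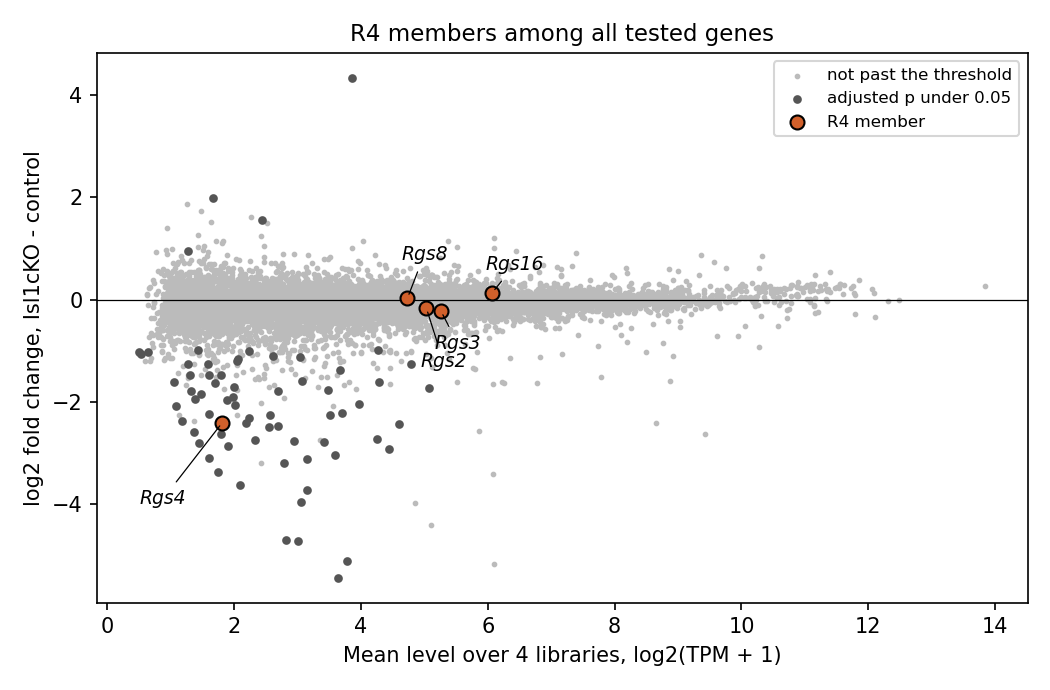
Log2 fold change (Isl1cKO minus control) against mean level in log2(TPM + 1) for the 13984 tested genes, with called genes in dark grey and the 5 tested R4 members in orange. Rgs4 lies among the called lower genes at -2.41, and the other 4 members lie between -0.22 and 0.13.

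The upstream sequence of Rgs4 is shown with that of Rgs5, its neighbour on the chromosome, and of Rgs16, the most abundant member, since these 3 genes had unlike values. The sequences are the 250 bases before the annotated start in RefSeq (GRCm38.p6), where 8 of the 10 members were matched. They lie at chr1:169747643-169747892 (minus strand) for Rgs4, chr1:169655251-169655500 (plus strand) for Rgs5 and chr1:153740103-153740352 (plus strand) for Rgs16. Capitals mark CANNTG, the E-box that basic helix-loop-helix factors recognise.
Rgs4: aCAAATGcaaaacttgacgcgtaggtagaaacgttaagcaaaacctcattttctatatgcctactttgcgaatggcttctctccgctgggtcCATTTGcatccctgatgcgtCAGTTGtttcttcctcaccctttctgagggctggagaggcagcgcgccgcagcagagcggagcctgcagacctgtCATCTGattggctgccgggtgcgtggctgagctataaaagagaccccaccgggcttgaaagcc
Rgs5: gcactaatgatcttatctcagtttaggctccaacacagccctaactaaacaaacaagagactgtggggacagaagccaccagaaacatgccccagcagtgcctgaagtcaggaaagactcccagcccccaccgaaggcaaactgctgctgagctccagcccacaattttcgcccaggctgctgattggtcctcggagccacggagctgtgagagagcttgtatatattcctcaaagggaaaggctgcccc
Rgs16: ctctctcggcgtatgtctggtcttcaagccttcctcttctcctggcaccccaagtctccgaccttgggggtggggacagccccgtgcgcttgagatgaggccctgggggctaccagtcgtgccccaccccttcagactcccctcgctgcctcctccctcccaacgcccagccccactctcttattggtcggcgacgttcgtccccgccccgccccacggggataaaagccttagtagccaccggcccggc

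The Rgs4 window held 4 E-boxes, starting 249, 158, 138 and 63 bases before the start site. Those of Rgs5 and Rgs16 held 0, and that of Rgs13, a scarce member, also held 4. Of 32817 RefSeq promoter windows of the same length, 66.2% held at least 1 CANNTG and 3.84% held 4 or more. TAAT, the core letters that homeodomain proteins such as Isl1 recognise, was searched on both strands and occurred 0 times in the windows of Rgs4 and Rgs16 and 1 time in that of Rgs5, against 54.9% of all windows with at least 1. TGACG, the core of the cyclic AMP response element, occurred 2 times in the Rgs4 window on either strand, 236 and 141 bases before the start. The match at 141 shares letters with the E-box at 138. Of all windows, 17.7% held at least 1 TGACG and 3.9% held 2 or more. The window of Rgs2, an abundant member, also held 2, and that of Rgs21 and 1 window of Rgs8 held 1 each. The windows of Rgs4 and Rgs5 each had a GC content of 53.6%, and that of Rgs16 had 66.4%, against a median of 52.4% over all windows. A match describes letters and shows no binding, and no match says only that the letters are not in this window.

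Other cell types were read beside Rgs4. Of 16 retinal ganglion cell markers, 15 were tested, and 14 had a lower and 1 a higher mean in the Isl1cKO-labelled libraries, with a median log2 fold change of -1.12, against -0.05 over all tested genes. None of the 15 was called in limma, and 13 had an unadjusted p-value under 0.05, as did 1694 or 12.1% of all tested genes. Their summed level was 4204 and 3589 TPM in controls and 2154 and 1493 TPM in the Isl1cKO-labelled libraries. The ratio of the Isl1cKO mean to the control mean was 0.0745 for Rgs4. Among the tested ganglion cell markers it ran from 0.111 for Pou4f3 to 1.02 for Pou4f2, with Ebf3 next to the lowest at 0.320. Pou4f3 stood at 4.86 and 2.02 TPM in controls and at 0.761 and 0 TPM in the Isl1cKO-labelled libraries. Like Rgs4, Pou4f3 passed the filter through the controls alone. In RNA from whole tissue, fewer cells of a type and less RNA per cell cannot be told apart.

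Lens and blood transcripts also moved with the groups. Of 14 lens genes, all tested, 10 were called in limma, all lower, beside 0.493% of all tested genes. The 14 genes had a median log2 fold change of -2.84. They summed to 249 and 307 TPM in controls and to 13.1 and 10.2 TPM in the Isl1cKO-labelled libraries. Of the called genes, Cryba1, Cryba2, Cryba4, Cryga, Crygb and Crygc were under 1 TPM in both Isl1cKO-labelled libraries. These passed the filter through the controls alone, so nothing is read from their direction. Lim2, a lens membrane protein, was listed at 0 in both libraries labelled Isl1cKO and passed the filter in the same way. Of the 14 lens genes, 9 had a lower ratio of means than Rgs4. The 10 red blood cell genes summed to 2904 and 4170 TPM in controls and to 1419 and 205 TPM in Isl1cKO replicates 1 and 2. Of their 9 tested members, 0 were called in limma, and 5 had an unadjusted p-value under 0.05, beside 12.1% of all tested genes. This summed level differed widely between the replicates of the Isl1cKO-labelled libraries. The part of ganglion cell, lens and blood transcripts in the level of Rgs4 was not tested.

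The abundant members varied far less. Rgs16 (chromosome 1, 153740353 to 153745468, plus strand), which acts on G alpha i/o and G alpha q, stood at 63.0 and 63.3 TPM in controls and at 69.8 and 69.1 TPM in the Isl1cKO-labelled libraries. Both values of the latter were higher, and the replicates lay close together. The log2 fold change was 0.13 (SE 0.08), with a 95% interval from -0.07 to 0.34, and it did not pass the threshold. Rgs8 (chromosome 1, 153653037 to 153697667, plus strand), a neuronal member known for speeding up G-protein-gated potassium currents, stood at 24.9 and 25.9 TPM in controls and at 25.9 TPM in both libraries labelled Isl1cKO. Its log2 fold change was 0.03 (SE 0.08), with an interval from -0.18 to 0.24. For Rgs8 the gap between the groups was smaller than the distance between the controls.

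Rgs2 (chromosome 1, 143999338 to 144004149, minus strand) is the member with a marked preference for G alpha q. It stood at 35.3 and 32.1 TPM in controls and at 32.0 and 28.0 TPM in the Isl1cKO-labelled libraries. The groups were just separate, by less than the distance between the replicates of either. The log2 fold change was -0.17 (SE 0.11), with an interval from -0.45 to 0.12. Rgs3 (chromosome 4, 62559847 to 62703019, plus strand), the only member outside chromosome 1, has long isoforms, 1 of which carries a PDZ domain and binds ephrin-B proteins. Its level was 42.7 and 38.4 TPM in controls and 32.2 and 37.1 TPM in the Isl1cKO-labelled libraries, and its log2 fold change was -0.22 (SE 0.11), with an interval from -0.52 to 0.08. Neither gene passed the threshold.

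The ratio of deposited coverage to FPKM was far lower for Rgs3 than for the other members above 0. GENCODE M21, an annotation of the same genome, lists 17 transcripts for Rgs3, against 1 for Rgs16 and 3 for Rgs4. The deposited coverage of Rgs3 was 1.54 to 1.77 times its FPKM in the 4 libraries, whereas for Rgs2, Rgs4, Rgs13 and Rgs16 that ratio lay between 12.6 and 14.3. For Rgs8, with 10 transcripts, it lay between 11.5 and 12.9, and for Rgs5, with 2, between 11.9 and 12.8 in the 3 libraries where it was above 0. How the division of reads among isoforms bears on the level of Rgs3 was not tested. Antisense genes overlap Rgs3 (Gm11209), Rgs8 (Gm29529) and Rgs16 (Gm28513) in GENCODE. Whether strand was used in the quantification is not given in the sources used here, and without it the reads of such pairs cannot be told apart.

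Rgs5 (chromosome 1, 169655501 to 169695813, plus strand) is a marker of pericytes, the mural cells that wrap small vessels. It stood at 1.66 TPM in control replicate 1, 0.235 TPM in control replicate 2, 0.0847 TPM in Isl1cKO replicate 1 and was listed at 0 in Isl1cKO replicate 2. It reached 1 TPM in 1 library only and was not tested. Control replicate 1 stood apart from the other 3 libraries, and the distance between the controls was larger than that between the lower control and either library labelled Isl1cKO.

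Endothelial markers had the same order over the libraries as Rgs5 in 7 of 8 genes. Cdh5, the cadherin of endothelial junctions, stood at 2.55, 0.357 and 0.211 TPM and was listed at 0 in Isl1cKO replicate 2. Emcn, an endothelial sialomucin, stood at 2.16, 0.383 and 0.175 TPM and Tie1, an endothelial receptor, at 1.80, 0.336 and 0.0959 TPM, and both were also listed at 0 in Isl1cKO replicate 2. The exception was Pecam1. The 8 endothelial genes summed to 86.8 and 64.9 TPM in controls and to 63.2 and 59.6 TPM in the Isl1cKO-labelled libraries, most of it from Kdr, and 0 of the 2 tested were called in limma, with 0 at an unadjusted p-value under 0.05. Of 10 mural cell genes, 0 had that order, and they summed to 54.0 to 59.4 TPM per library. Of these 10, Kcnj8, Abcc9 and Higd1b each stayed at or under 0.365 TPM, and Cspg4, Acta2, Des and Anpep at or under 1.15 TPM. Notch3 stood at 38.1 and 39.9 TPM in controls and at 43.2 and 44.6 TPM in the Isl1cKO-labelled libraries, so both values of the latter were higher. Vtn stood at 9.85 and 9.62 TPM in controls and at 8.17 and 9.20 TPM in the Isl1cKO-labelled libraries. Pdgfrb stood at 3.27 and 2.83 TPM in controls and at 3.06 and 3.80 TPM in the Isl1cKO-labelled libraries. Of the 4 tested mural cell genes, 2 had a lower and 2 a higher mean in the Isl1cKO-labelled libraries. The same order also held for 11 of the 16 ganglion cell markers and for 8 of 28 Gi-coupled receptor genes. How common this order is over all genes was not counted, so nothing is read from these counts. The part of vessel cells in the level of Rgs5 was not tested.

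**Figure D3:**
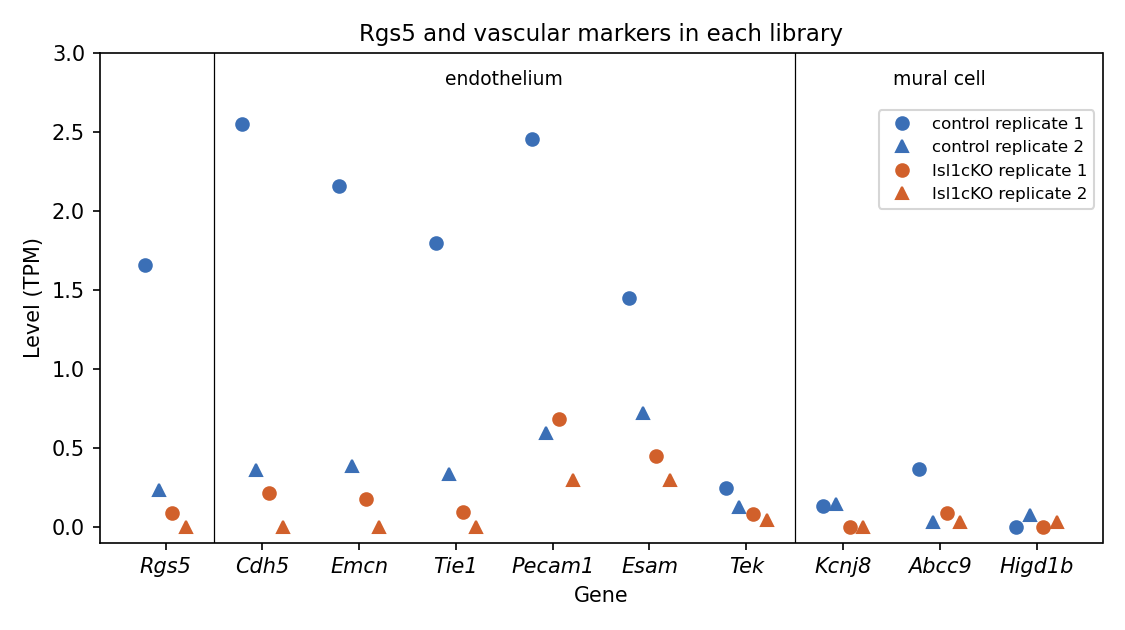
Level in TPM of Rgs5, of the 6 endothelial markers other than Kdr and Cldn5, and of 3 mural cell markers in the 4 libraries. The mural markers shown are Kcnj8, Abcc9 and Higd1b, 3 of the 10 listed (circles replicate 1, triangles replicate 2, blue control, orange Isl1cKO). The 4 tested mural cell genes are not shown, and 2 of them had a lower and 2 a higher mean in the Isl1cKO-labelled libraries. Control replicate 1 is the highest point for Rgs5, Cdh5, Emcn, Tie1, Pecam1, Esam and Tek, and for the mural marker Abcc9.

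Rgs13 (chromosome 1, 144138667 to 144177372, minus strand) is known from germinal centre B cells and mast cells. It stood at 0.764 and 0.983 TPM in controls and at 0.437 and 0.372 TPM in the Isl1cKO-labelled libraries, so it stayed under 1 TPM and was not tested. The groups did not overlap, and the ratio of control to Isl1cKO means was 2.16. Its coverage per base ran from 1.85 to 4.86 over the 4 libraries. Of 8 B cell and mast cell markers, Ms4a1, Mcpt4 and Fcer1a were listed at 0 in all 4 libraries, and Kit, the only one tested, was not called in limma (unadjusted p-value 0.00937). The summed level of these 8 genes was 24.6 and 20.6 TPM in controls and 15.8 and 14.5 TPM in the Isl1cKO-labelled libraries, most of it Kit, which is also known from cell types other than mast cells. Their part in the level of Rgs13 was not tested.

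The 3 members listed at 0 are genes of blood cells and of taste. Rgs1 (chromosome 1, 144244669 to 144249104) is known from lymphocytes, Rgs18 (chromosome 1, 144752683 to 144775427) from platelets and megakaryocytes, and Rgs21 (chromosome 1, 144519690 to 144567667) from taste cells. The 6 megakaryocyte and platelet markers summed to 15.6 and 14.7 TPM in controls and to 8.44 and 6.43 TPM in the Isl1cKO-labelled libraries, most of it Gp1bb. Gp1bb was the only one tested and was not called in limma (unadjusted p-value 0.0031). The groups overlapped for Itga2b, Gp9 and Gp5 and did not for Pf4, Ppbp and Gp1bb, beside 44.9% of all tested genes without overlap. Microglia and macrophage markers summed to 56.4 and 56.3 TPM in controls and to 68.8 and 85.3 TPM in the Isl1cKO-labelled libraries. Of the 9 tested, 0 were called in limma and 4 had an unadjusted p-value under 0.05, beside 12.1% of all tested genes. A value of 0 in these tables is not a limit of detection, since depth in reads is unknown.

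Across the 7 members above 0, both values of a group lay on the same side of both values of the other in all 7, and in all 5 that were tested. The same held for 44.9% of all tested genes, and for 30.0% with the lower values in the Isl1cKO-labelled libraries. Of the 5, 3 had a lower and 2 a higher mean in the Isl1cKO-labelled libraries, and their median log2 fold change was -0.17. Over all tested genes 63.8% were lower and the median was -0.05. For Rgs8, Rgs2 and Rgs3 this separation was narrower than a distance between replicates, and nothing is read from the count.

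All members except Rgs3 lie on chromosome 1, in 3 groups. Rgs2, Rgs13, Rgs1, Rgs21 and Rgs18 follow each other on the minus strand with no other listed gene between them. Rgs8 and Rgs16 lie 42685 bases apart with C230024C17Rik between them, and Rgs5 and Rgs4 45663 bases apart on opposite strands. In the first group Rgs2 stood at 28.0 to 35.3 TPM and Rgs13 under 1 TPM, and the next 3, Rgs1, Rgs21 and Rgs18, were all listed at 0. On the far side of Rgs5, Nuf2, a kinetochore gene, had 125 and 122 TPM in controls and 118 and 106 TPM in the Isl1cKO-labelled libraries, a log2 fold change of -0.14 (adjusted p-value 0.624 in limma). On the far side of Rgs4, Ccdc190 was listed at 0 in control replicate 1 and Isl1cKO replicate 1 and stood at 0.0544 TPM in control replicate 2 and 0.505 TPM in Isl1cKO replicate 2. No flanking gene outside the family was called.

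The other RGS subfamilies were read from the same fit. R7 proteins include the photoreceptor regulator Rgs9 and work with Gnb5, RZ proteins prefer G alpha z and i, and R12 proteins act on G alpha i/o. Of 10 RGS genes of these subfamilies 9 were tested, and 7 had a lower and 2 a higher mean in the Isl1cKO-labelled libraries, with a median of -0.41. None of the 9 was called in limma, beside 0.493% of all tested genes, and 4 had an unadjusted p-value under 0.05, beside 12.1%. Among all tested genes 63.8% were lower, and the median was -0.05. Rgs6 stood at 10.8 and 6.90 TPM in controls and at 4.96 and 2.76 TPM in the Isl1cKO-labelled libraries, a log2 fold change of -1.03 (SE 0.30). Rgs7 stood at 3.48 and 4.32 TPM in controls and at 1.66 and 1.84 TPM in the Isl1cKO-labelled libraries, a log2 fold change of -0.83 (SE 0.12). Both are neuronal regulators of G alpha o, and for both the groups were separate, as they were for 44.9% of all tested genes.

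The other R7 genes went both ways, with -0.41 for Rgs9 and 0.45 for Rgs11. In the RZ group the log2 fold changes of Rgs17, Rgs20 and Rgs19 were -0.42, -0.32 and 0.20, and in the R12 group those of Rgs10 and Rgs12 were -0.69 and -0.03. Among the tested genes of these 3 subfamilies and the R4 members, the log2 fold change of Rgs4 was the lowest, and that of Rgs6 the next.

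**Figure D4:**
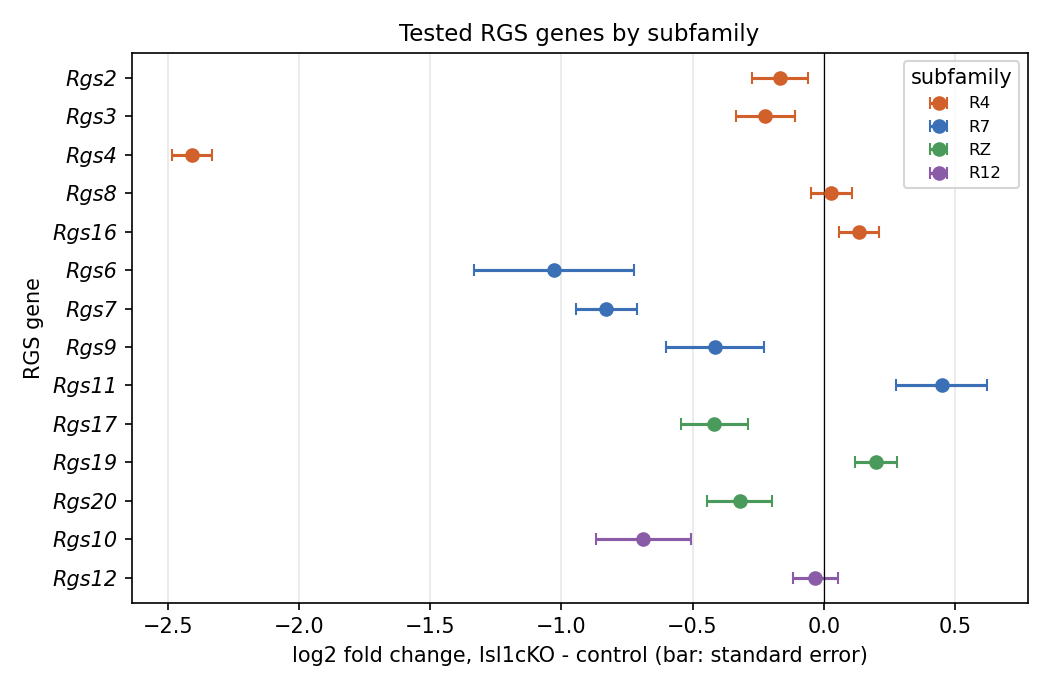
Log2 fold change (Isl1cKO minus control) of the 14 tested RGS genes on the log2(TPM + 1) scale, coloured by subfamily, with bars for the standard error. Rgs4 stands at -2.41, and the other 13 lie between -1.03 and 0.45.

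The genes around RGS proteins in the pathway were taken from 12 lists that include these subfamilies, 117 genes in all. Of the 80 tested, 61 had a lower and 19 a higher mean in the Isl1cKO-labelled libraries, with a median log2 fold change of -0.14. Over all tested genes 63.8% were lower and the median was -0.05. In limma 1 of the 80 was called, beside 0.493% of all tested genes. Of the 80, 27 had an unadjusted limma p-value under 0.05, beside 12.1% of all tested genes. Both shares are also the background for each list below. Of the 27, Htr1a, Grm8, Sstr2 and Gng13 had a higher mean in the Isl1cKO-labelled libraries. The called gene was Cxcr4, the Gi-coupled receptor of the chemokine Cxcl12. Cxcr4 stood at 58.3 and 40.3 TPM in controls and at 7.83 and 5.28 TPM in the Isl1cKO-labelled libraries. Its groups were far apart, with a log2 fold change of -2.73 (SE 0.25) and an adjusted p-value of 0.0471 in limma. That call was lost when any 1 of the 4 libraries was left out (0.0595 to 0.191), at a pseudocount of 0.1 (0.102) and with no filter on low values (0.156).

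The alpha subunits that R4 proteins act on showed smaller differences. Gnao1, the main G alpha o gene of neurons, stood at 73.3 and 64.1 TPM in controls and at 48.6 and 38.0 TPM in the Isl1cKO-labelled libraries, a log2 fold change of -0.66 (SE 0.15). The value for Gnaz was -0.39. Of 6 tested i/o/z and transducin genes 5 were lower, with a median of -0.26 and 0 called in limma, and 2 had an unadjusted p-value under 0.05. Among G alpha q/11 genes 3 of 3 tested were lower, with a median of -0.19, 0 called and 1 at an unadjusted p-value under 0.05. Gna14, the lowest of these 3, stood at 1.90 and 1.60 TPM in controls and at 0.489 and 0.496 TPM in the Isl1cKO-labelled libraries, with a log2 fold change of -0.88 (SE 0.09) and an adjusted p-value of 0.0632 in limma. Gna14 passed the filter through the controls alone. It passed the threshold in 2 alternatives, at a pseudocount of 0.1 (0.0465) and with a replicate block (0.0344). In the other alternatives with all 4 libraries it did not, from 0.0573 with median-ratio scaling to 0.153 with no filter on low values. Gnaq, the widely expressed q subunit, had -0.19.

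The alpha subunits that most R4 proteins do not act on, G alpha s and 12/13, were lower in 4 of 4 tested genes, with a median of -0.17, values of -0.48 for Gnal and -0.18 for Gna12, 0 called in limma and 1 at an unadjusted p-value under 0.05. Among 15 tested beta and gamma genes 11 were lower, with a median of -0.14, 0 called in limma and 7 at an unadjusted p-value under 0.05. Of these 7, Gng13 was higher in the Isl1cKO-labelled libraries, with a log2 fold change of 0.29. The largest differences of the 15 were those of Gnb3 and Gng4. Gnb3, the beta subunit of cone photoreceptors, had a log2 fold change of -0.94 (SE 0.40), and Gng4, a gamma subunit, one of -0.93 (SE 0.13). All 6 photoreceptor precursor genes were tested and had lower means, with a median of -0.45, 0 called in limma and 1 at an unadjusted p-value under 0.05. That gene, Rxrg, a nuclear receptor of cones, stood at 13.1 and 7.56 TPM in controls and at 3.10 and 1.95 TPM in the Isl1cKO-labelled libraries. The part of photoreceptor precursors in the level of Gnb3 was not tested.

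Receptors were read by their coupling, and the difference between the medians was not tested. The 15 tested Gi-coupled receptors had a median of -0.43 with 11 lower, Cxcr4 called in limma and 10 at an unadjusted p-value under 0.05. Of these 10, Htr1a, Grm8 and Sstr2 were higher in the Isl1cKO-labelled libraries, with log2 fold changes of 0.74, 0.72 and 0.27. The 7 tested Gq-coupled receptors had a median of -0.07 with 5 lower, 0 called in limma and 1 at an unadjusted p-value under 0.05. Their largest differences were -0.39 for the muscarinic receptor Chrm3 and 0.19 for the thrombin receptor F2r.

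Downstream of the subunits, 8 of 10 tested phospholipase C beta and adenylyl cyclase genes were lower, with a median of -0.10, 0 called in limma and 1 at an unadjusted p-value under 0.05. The largest differences were those of Adcy1 and Adcy5, at -0.47 and -0.43. The G-protein-gated potassium channel genes Kcnj3 and Kcnj9, the 2 of 4 that were tested, had values of 0.16 and -0.17, with 0 called and 0 at an unadjusted p-value under 0.05. Rgs4, Rgs5 and Rgs16 proteins carry a cysteine after the initiator methionine and are degraded through the arginine branch of the N-degron pathway. Of its 7 genes, all tested, 6 were lower with a median of -0.07, and 0 were called in limma, with 0 at an unadjusted p-value under 0.05. Its largest differences were -0.28 for the ubiquitin ligase Ubr1 and -0.21 for the arginyl transferase Ate1.

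**Figure D5:**
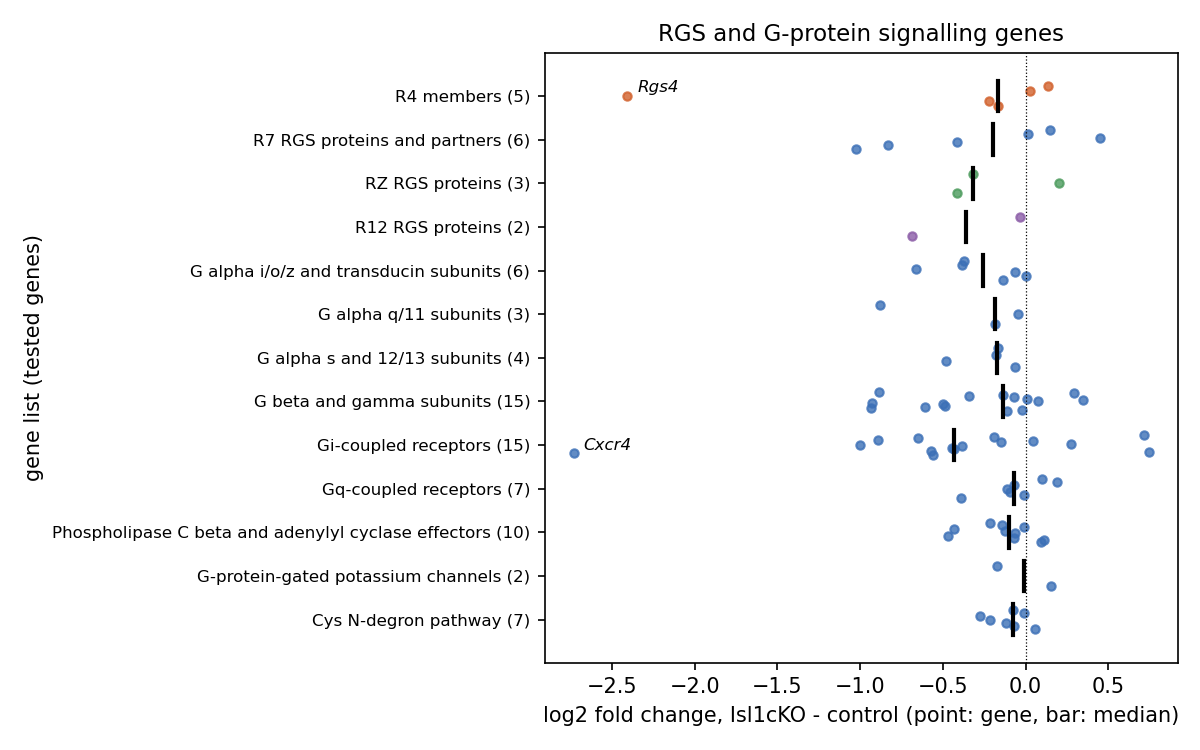
Log2 fold change (Isl1cKO minus control) of every tested gene in the R4 family and the 12 pathway lists, 1 point per gene, with a bar at the median and the number of tested genes in brackets. Rgs4 lies at -2.41 and Cxcr4 at -2.73, and the other points lie between -1.03 and 0.74.

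The tested genes most like Rgs4 were found by the Euclidean distance between mean-centred log2(TPM + 1) profiles over the 4 libraries. These were the gamma-crystallin Crygf (distance 0.24), the endothelin-converting enzyme-like gene Ecel1 (0.25), the tyrosine hydroxylase gene Th (0.25), the parvin gene Parvb (0.26) and Ubash3b (0.26). Ecel1 stood at 7.21 and 8.10 TPM in controls and at 0.391 and 0.385 TPM in the Isl1cKO-labelled libraries, close to the levels of Rgs4 in each library. Th stood at 8.43 and 10.7 TPM in controls and at 0.987 and 1.25 TPM in the Isl1cKO-labelled libraries. Crygf, whose reads may be shared with its close paralogs, was listed at 0 in both libraries labelled Isl1cKO. This measure of likeness was taken over 4 libraries in 2 groups only.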

How the data were processed

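RNA of the 2 control and 2 Isl1cKO-labelled libraries was strand-specific and poly(A)-selected, per the labels' protocols. The submitters' processing notes name Trimmomatic, FastQC, HISAT2, SAMtools, StringTie and DESeq2 with the mouse build mm10. Versions, the annotation and the strand setting are not given in the sources used here. The deposited tables hold, per the file headers, coverage per base, FPKM and TPM for each library. The authors' TPM sum to 1000000 per library. No count model was used, since none of these units is a count.

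TPM of gene IDs on several rows (171 to 234 per library) were summed. Genes with at least 1 TPM in at least 2 libraries were tested on log2(TPM + 1) with limma 3.58.1 in R 4.3.3, genotype being the only term, with Benjamini-Hochberg adjustment over all tested genes and a threshold of 0.05. The script was tested on simulated data. The deposited FPKM served as an alternative, and the deposited coverage signal described depth. Other pseudocounts, filters and scalings, a variance trend, a replicate block and left-out replicates were also tried.

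The members and gene lists were chosen with earlier results of these data known. Named were all members, Isl1, called pathway genes or otherwise the 2 of each list with the largest difference, the flanking genes and the 5 genes most like Rgs4. Other genes were named after their values were seen. Coordinates are those of the tables.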

Additional observations from a re-analysis of the deposited data

How the results depend on the processing

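For each value that moved below, the cause was not tested unless stated. The FPKM of Rgs4 are smaller than its TPM and were given the same pseudocount of 1, which makes its log2 fold change smaller. Rgs4, Rgs2, Rgs3, Rgs8, Rgs16 and Isl1 kept their direction under each of 13 alternatives. The call of Rgs4 was kept in 11 of them, with log2 fold changes from -3.52 at a pseudocount of 0.1 to -1.59 with FPKM, and lost without either control. The number of called members, 1, was 0 to 1 across the left-out replicates. Leaving out a replicate gave 10 to 37 called genes in place of 69, with fewer samples, and 0 called pathway genes in place of 1. In the 3-library fits the lone library of a group is assumed to vary like the other group. The count of fits that kept the call of Rgs4 is a description only. The family was picked for that gene, which passed the filter through the controls alone.

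The count of 69 called genes was 44 at a pseudocount of 0.1, 15 with no filter beyond a value above 0, 109 with FPKM and 110 with a mean-variance trend. The count of 1 called pathway gene was 2 at a pseudocount of 0.1 (Gna14 and Grm3, a Gi-coupled glutamate receptor) and 0 with no filter, where more genes were tested. Gna14 and Grm3 both passed the filter at 1 TPM through the controls alone. Filtering at 5 TPM, median-ratio and upper-quartile scaling and keeping the largest row of a gene changed no call of a member.

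With the replicate block 265 genes passed (240 lower, 25 higher), and 10 pathway genes (8 lower): Cxcr4, Gabbr2, Gna14 (adjusted p-value 0.0344), Gnb3, Gng4 (0.0240), Gngt2, Grm8, Htr1a, Rgs6 and Rgs7. Across genes, the departures of the libraries numbered 1 from their groups' means had a correlation of 0.13. There are 2 pairs, and the labels name no litter or day in common, so the pairing is by number only. Genes listed at 0 have no stated limit of detection, because the number of reads is unknown.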

Other observations

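Further genes that end or redirect G-protein signals were read after the values above had been seen. Of 26 such genes 22 were tested, of which 19 had a lower and 3 a higher mean in the Isl1cKO-labelled libraries and 0 were called in limma, with 3 at an unadjusted p-value under 0.05. The 9 proteins with an RGS-homology domain outside the 4 subfamilies, among them the Wnt scaffolds Axin1 and Axin2, had log2 fold changes from -0.18 to 0.06 and a median of -0.09. The 7 tested receptor kinases and arrestins had a median of -0.13. Arrb1, a beta-arrestin that uncouples receptors from G proteins, stood at 30.8 and 27.0 TPM in controls and at 21.3 and 18.1 TPM in the Isl1cKO-labelled libraries, a log2 fold change of -0.53 (adjusted p-value 0.244 in limma).

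The 6 tested regulators that act on G proteins without a receptor had a median of -0.09. Gprin1, a partner of activated G alpha o in growing neurites, stood at 43.3 and 36.7 TPM in controls and at 26.4 and 23.6 TPM in the Isl1cKO-labelled libraries, a log2 fold change of -0.65 (adjusted p-value 0.175 in limma). Gpsm3 had the highest value of the 6, at 0.34, with 4.12 and 4.71 TPM in controls and 5.42 and 6.34 TPM in the Isl1cKO-labelled libraries.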
